A study of Mus musculus with 10 samples.

Results

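The genes described here encode enzymes that build triglyceride from glycerol phosphate and fatty acyl-CoA. They are Gpam, Agpat2, Agpat3, Lpin1, Lpin2, Lpin3, Dgat1, Dgat2, Mogat1 and Mogat2, chosen by symbol, and all 10 were found among the 40503 genes of the deposited table. Their 54 transcripts were taken from a second table of 84046 transcripts. The libraries came from gonadal white adipose tissue of C57BL/6 females aged 12 weeks, with 5 libraries labelled KO and 5 labelled WT, each from a numbered animal. KO mice carried an adipose-specific, tamoxifen-inducible deletion of Med19, a subunit of Mediator, which carries signals of transcription factors to RNA polymerase II. For them the labels describe 100 mg/kg tamoxifen over 5 days and tissue collection 14 days later. Control mice are labelled WT. The labels leave unsaid whether they received tamoxifen, which other alleles they carried and which promoter drove the recombinase.

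Triglyceride is assembled in steps. Glycerol phosphate acyltransferases such as GPAM, the mitochondrial form, attach an acyl chain to glycerol phosphate, and the AGPAT enzymes attach the next to give phosphatidate. Lipins, encoded by Lpin1, Lpin2 and Lpin3, remove its phosphate to give diacylglycerol, and DGAT1 and DGAT2 add the last chain. MOGAT1 and MOGAT2 offer another entry by acylating monoacylglycerol, a route best known from the intestine. Loss of AGPAT2 in humans and of lipin-1 in mice is a known cause of lipodystrophy, a lack of body fat.

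Between 14444258 and 20183633 reads per library stood behind the gene values, which are RPKM (reads per kilobase, scaled to the size of the library). Med19 RNA did not separate the groups: it was at 6.79 ± 0.854 RPKM in the libraries labelled KO and 6.70 ± 0.893 RPKM in WT libraries (mean ± SD, n = 5 each, as for every such value that follows; limma adjusted p = 0.937). The labels do not say which part of Med19 was deleted or whether reads from it were counted. The libraries are therefore called KO-labelled, and every direction rests on the labels. In all, 17038 genes reached 0.5 RPKM in at least 5 libraries and were tested on the log2(RPKM + 0.5) scale. Of these, 332 fell and 681 rose in KO-labelled libraries at an adjusted p under 0.05. The split was 414 and 102 with median-ratio scaling and 392 and 149 with quantile normalization.

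At every step of the route from glycerol phosphate, at least 1 gene was lower in KO-labelled libraries. Gpam, Agpat2, Lpin1, Dgat1 and Dgat2 fell, which is 5 of the 9 members tested, against a background of 1.95% of all genes tested. None of the 9 rose, where 4% of all genes did (5.95% changed in either direction), and none had a log2 change above 0 at an unadjusted p under 0.05 in limma, where 19.9% of all genes did. No member was called higher by limma voom on recovered reads. The same 5 were the tested members with all KO-labelled libraries below all WT libraries, a pattern found in 2.15% of all genes tested. No tested member had all KO-labelled libraries above all WT libraries, as 6.96% of all genes did. Their log2 changes ran from -1.41 for Dgat2 to -0.65 for Gpam. The median over the 9 was -0.65, against 0.09 over all genes tested. In bulk tissue, fewer cells of a type and less RNA per cell cannot be told apart.

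**Figure D1:**
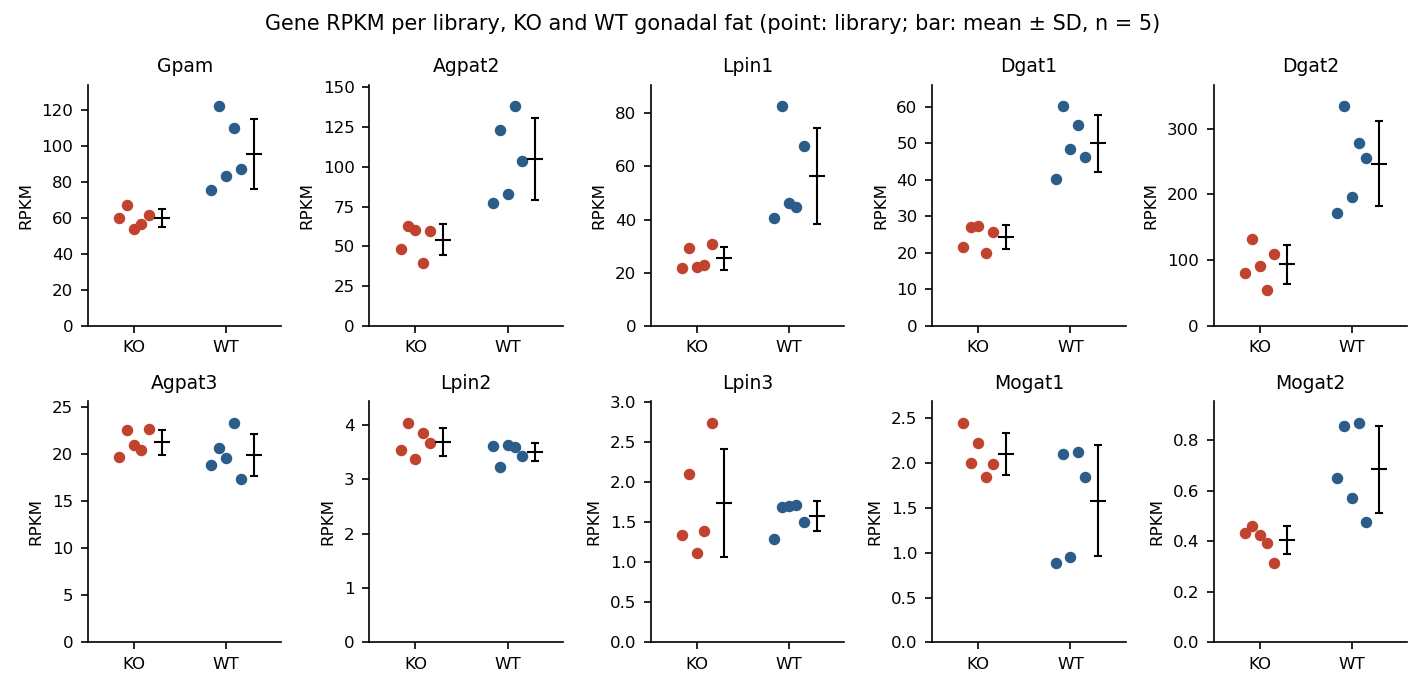
RPKM of each of the 10 genes (vertical axes, linear, from 0) in the 5 KO-labelled and 5 WT libraries, with points for single libraries and bars for the mean and SD. Gpam, Agpat2, Lpin1, Dgat1, Dgat2 and Mogat2 have all KO-labelled points below all WT points, and the other 4 genes overlap.

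Gpam (ENSMUSG00000024978) was at 60.0, 66.8, 54.0, 56.4 and 61.4 RPKM in KO 1, KO 4, KO 7, KO 8 and KO 17. In WT 2, WT 9, WT 19, WT 86 and WT 89 it was at 75.6, 122, 82.9, 109.8 and 87.2 RPKM. The KO-labelled libraries lay close together and below every WT library, and WT 9 was the highest. Gpam fell by 0.65 on the log2 scale (SE 0.13, adjusted p = 0.0197), with means of 59.7 ± 4.95 RPKM in KO-labelled and 95.4 ± 19.5 RPKM in WT libraries. The call did not hold without KO 1 (adjusted p = 0.0504) or without KO 8 (adjusted p = 0.0502).

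The AGPAT step is carried by several enzymes, and the members Agpat2 and Agpat3 differed in their change. Agpat2 (ENSMUSG00000026922) was at 48.3, 62.9, 60.5, 39.8 and 60.0 RPKM in KO 1, KO 4, KO 7, KO 8 and KO 17. It was at 77.4, 123, 83.1, 138 and 103 RPKM in WT 2, WT 9, WT 19, WT 86 and WT 89. KO 8 was the lowest of all, and no KO-labelled library reached WT 2, the lowest WT library. Agpat2 fell by 0.93 on the log2 scale (SE 0.18, adjusted p = 0.0189), and this call ended without KO 1 (adjusted p = 0.0535). Agpat3 was at 21.3 ± 1.32 RPKM in KO-labelled and 19.98 ± 2.23 RPKM in WT libraries. Its groups overlapped, and its log2 change of 0.09 had a 95% interval from -0.08 to 0.27 (adjusted p = 0.515). The log2 ratio of Agpat2 to Agpat3 was 1.31 ± 0.224 in KO-labelled and 2.34 ± 0.279 in WT libraries. The ratio, 1 of 3 tested, was lower in every KO-labelled library than in any WT library (difference -1.03, 2-sided exact permutation p = 0.0079, adjusted over the 3 ratios 0.0119). With 5 libraries against 5, 0.0079 is the smallest p that this test can give. Agpat2 made up 71.5 ± 3.28% of the summed RPKM of the pair in KO-labelled libraries and 83.6 ± 2.70% in WT libraries.

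Among the lipins the difference lay in Lpin1, the form that is most abundant in fat and muscle. Lpin1 (ENSMUSG00000020593) was at 21.9, 29.2, 22.3, 22.9 and 30.8 RPKM in KO 1, KO 4, KO 7, KO 8 and KO 17. It was at 40.6, 82.6, 46.1, 44.8 and 67.6 RPKM in WT 2, WT 9, WT 19, WT 86 and WT 89. All KO-labelled libraries lay below all WT libraries, and WT 9 and WT 89 stood above the other WT libraries. Lpin1 fell by 1.09 on the log2 scale (SE 0.20, adjusted p = 0.0147).

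Lpin2, the form prominent in liver, was at 3.54, 4.03, 3.37, 3.84 and 3.67 RPKM in KO 1, KO 4, KO 7, KO 8 and KO 17, against 3.61, 3.23, 3.62, 3.58 and 3.43 RPKM in WT 2, WT 9, WT 19, WT 86 and WT 89. The groups overlapped, with a log2 change of 0.07 and a 95% interval from -0.08 to 0.21 (adjusted p = 0.573). Lpin3 was at 1.74 ± 0.672 RPKM in KO-labelled and 1.58 ± 0.187 RPKM in WT libraries, with a log2 change of 0.06 and a wider interval from -0.34 to 0.46 (adjusted p = 0.878). KO 17 and KO 4 were the highest Lpin3 libraries, at 2.74 and 2.10 RPKM, on 176 and 157 reads. The log2 ratio of Lpin1 to Lpin2 was 2.62 ± 0.194 in KO-labelled and 3.78 ± 0.496 in WT libraries, a difference of -1.16 (2-sided exact permutation p = 0.0079, adjusted over the 3 ratios 0.0119). Lpin1 remained the main lipin RNA: its share of the summed RPKM of the lipins was 82.4 ± 0.744% in KO-labelled libraries, between 81.4% and 83.3%. In WT libraries the share was 91.2 ± 2.43%, between 89.2% and 94.4%.

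**Figure D2:**
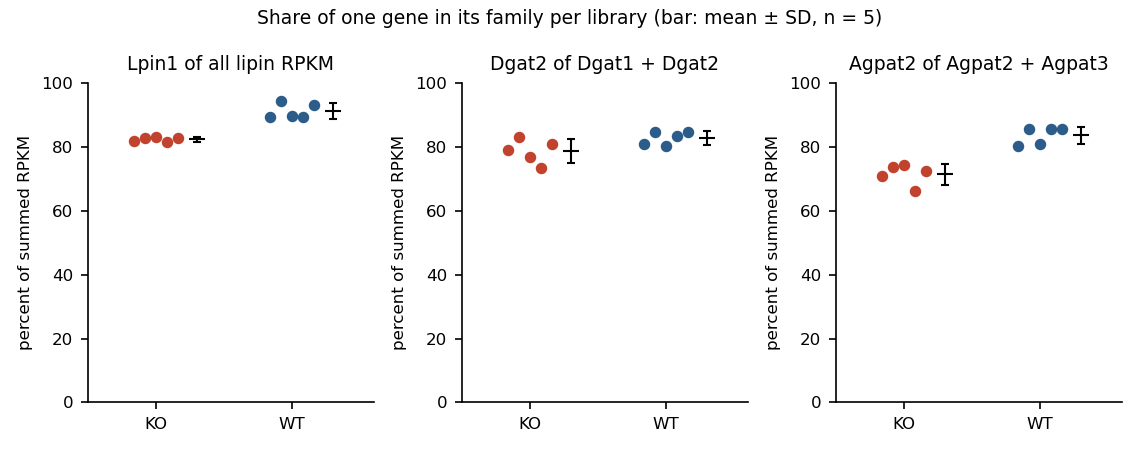
Share in percent of summed RPKM (vertical axis) in the 5 KO-labelled and 5 WT libraries. The panels show Lpin1 of Lpin1, Lpin2 and Lpin3, Dgat2 of Dgat1 and Dgat2, and Agpat2 of Agpat2 and Agpat3. Other AGPAT genes are left out. The shares of Lpin1 and Agpat2 do not overlap between the groups, and those of Dgat2 do.

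Both enzymes of the last step fell, although they are unrelated in sequence. Dgat1 (ENSMUSG00000022555) was at 21.7, 27.0, 27.2, 19.9 and 25.7 RPKM in KO 1, KO 4, KO 7, KO 8 and KO 17. It was at 40.2, 60.1, 48.4, 55.1 and 46.3 RPKM in WT 2, WT 9, WT 19, WT 86 and WT 89. The groups were well apart, and the log2 value fell by 1.02 (SE 0.12, 95% interval -1.30 to -0.75, adjusted p = 0.00126). Dgat1 was the member with the smallest adjusted p and the only member still called when WT 86 and WT 89 were left out together.

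Dgat2 (ENSMUSG00000030747), the most abundant member in both groups by mean RPKM, was at 81.3, 133, 91.1, 54.7 and 110 RPKM in KO 1, KO 4, KO 7, KO 8 and KO 17. In WT 2, WT 9, WT 19, WT 86 and WT 89 it was at 171, 334, 196, 279 and 255 RPKM. KO 8 was again lowest and WT 9 highest, and the highest KO-labelled library, KO 4, lay below WT 2. Dgat2 fell by 1.41 on the log2 scale (SE 0.25, adjusted p = 0.0125), with means of 93.9 ± 29.4 RPKM in KO-labelled and 247 ± 65.1 RPKM in WT libraries. The log2 ratio of Dgat2 to Dgat1 was 1.88 ± 0.321 in KO-labelled and 2.26 ± 0.212 in WT libraries. Its difference of -0.39 did not pass the test (2-sided exact permutation p = 0.0556, adjusted over the 3 ratios 0.0556), although it did without KO 4 (adjusted p = 0.0317) and without WT 19 (adjusted p = 0.0397).

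**Figure D3:**
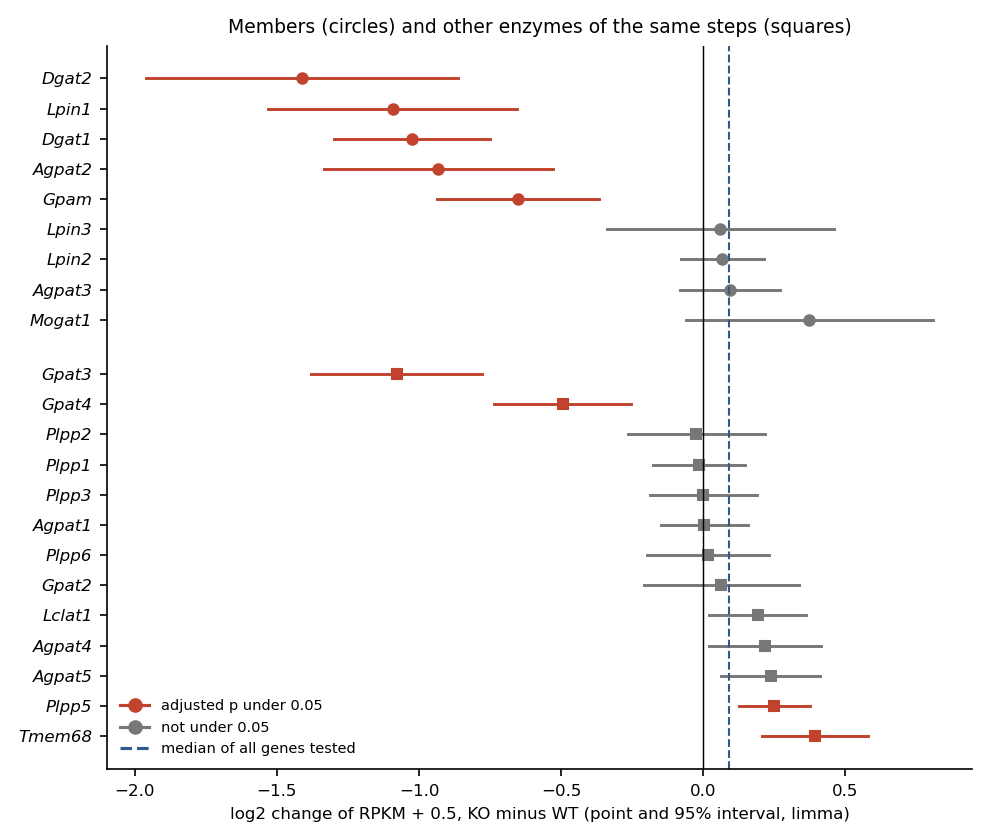
Log2 change, KO minus WT, of the 9 tested members (circles) and the 13 tested other enzymes of the same steps (squares), with 95% intervals from limma (horizontal axis, log2(RPKM + 0.5) scale); red marks an adjusted p under 0.05 and the dashed line the median of all genes tested. The intervals of Gpam, Agpat2, Lpin1, Dgat1 and Dgat2 lie below 0, and those of Agpat3, Lpin2, Lpin3 and Mogat1 include 0.

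The monoacylglycerol acyltransferases were scarce. Mogat1 (ENSMUSG00000012187) was at 2.45, 2.00, 2.22, 1.84 and 1.99 RPKM in KO 1, KO 4, KO 7, KO 8 and KO 17, and at 0.885, 2.10, 0.950, 2.13 and 1.85 RPKM in WT 2, WT 9, WT 19, WT 86 and WT 89. WT 2 and WT 19 were low, and the other 3 WT libraries lay within the range of the KO-labelled libraries. The log2 change was 0.37 with a 95% interval from -0.06 to 0.81 (adjusted p = 0.270). The values rest on 44 to 63 reads in KO-labelled and 22 to 48 reads in WT libraries. The 22 reads of WT 2 carry an exact Poisson 95% interval of 0.554 to 1.34 RPKM, which covers counting error only. On GENCODE M21, 200 of the 1558 exon bases of Mogat1 overlap BC035947 on the other strand, and reads of the pair cannot be told apart where the strand was not used. BC035947 was at 0.250 ± 0.104 RPKM in KO-labelled and 0.283 ± 0.145 RPKM in WT libraries. Shorter overlaps with genes of the other strand were 64 of 2130 exon bases of Agpat2 with Egfl7, 55 of 1835 of Mogat2 with Gm45012 and 16 of 7790 of Agpat3 with Gm40709. Egfl7 was at 15.9 ± 4.24 RPKM in KO-labelled and 21.4 ± 4.33 RPKM in WT libraries (log2 change -0.43, adjusted p = 0.224).

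Mogat2 (ENSMUSG00000052396) did not reach the level needed for the test. It was at 0.430, 0.458, 0.426, 0.391 and 0.314 RPKM in KO 1, KO 4, KO 7, KO 8 and KO 17, against 0.649, 0.854, 0.572, 0.867 and 0.474 RPKM in WT 2, WT 9, WT 19, WT 86 and WT 89. Every KO-labelled library was below every WT library, but on 10 to 17 reads against 13 to 23 reads. Counting intervals overlapped widely for the nearest libraries, from 0.267 to 0.734 RPKM in KO 4 and from 0.252 to 0.811 RPKM in WT 89. They overlapped narrowly for the furthest, from 0.150 to 0.577 RPKM in KO 17 and from 0.5495 to 1.30 RPKM in WT 86. Among annotated protein-coding genes Mogat2 is next to Dgat2 on chromosome 7, on the same strand and 36364 bases away.

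Ordered by mean RPKM, WT libraries had Dgat2, then Agpat2 and Gpam, then Lpin1 and Dgat1, then Agpat3, Lpin2, Lpin3 and Mogat1, and Mogat2. Ranges overlapped for the neighbours Agpat2 and Gpam, Gpam and Lpin1, Lpin1 and Dgat1, and Lpin3 and Mogat1. Within libraries, Agpat2 was above Gpam and Gpam above Lpin1 in 5 of 5 WT libraries, whereas Lpin1 was above Dgat1 in 3 of 5 and Lpin3 above Mogat1 in 2 of 5. In KO-labelled libraries Gpam was above Agpat2 in 4 of 5. In KO-labelled libraries the range of Dgat2, from 54.7 to 133 RPKM, overlapped those of Gpam and Agpat2. There the ranges of Lpin1, Dgat1 and Agpat3 overlapped too, whereas in WT libraries the highest Agpat3 value, 23.3 RPKM, was below every Lpin1 and Dgat1 value. Within single KO-labelled libraries most of this order was kept. Agpat3 was above Lpin1 in 0 of 5 and above Dgat1 in 1 of 5, and Dgat2 was exceeded by Agpat2 in 0 of 5 and by Gpam in 1 of 5.

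With group means removed, Agpat2, Dgat1 and Dgat2 varied together over the 10 libraries. Pearson r of their log2 deviations was 0.90 for Agpat2 with Dgat1, 0.90 for Agpat2 with Dgat2 and 0.87 for Dgat1 with Dgat2. Gpam followed them (r from 0.73 to 0.76), and Lpin1 less closely (r from 0.49 to 0.69). Members that did not pass the test also varied with these 3, Mogat1 with r from 0.57 to 0.75 and Agpat3 with r from 0.52 to 0.67. Lpin2 had r between -0.50 and 0.36 with the other members. These values describe 10 libraries that share cell make-up and scaling within each library, and no test was made.

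**Figure D4:**
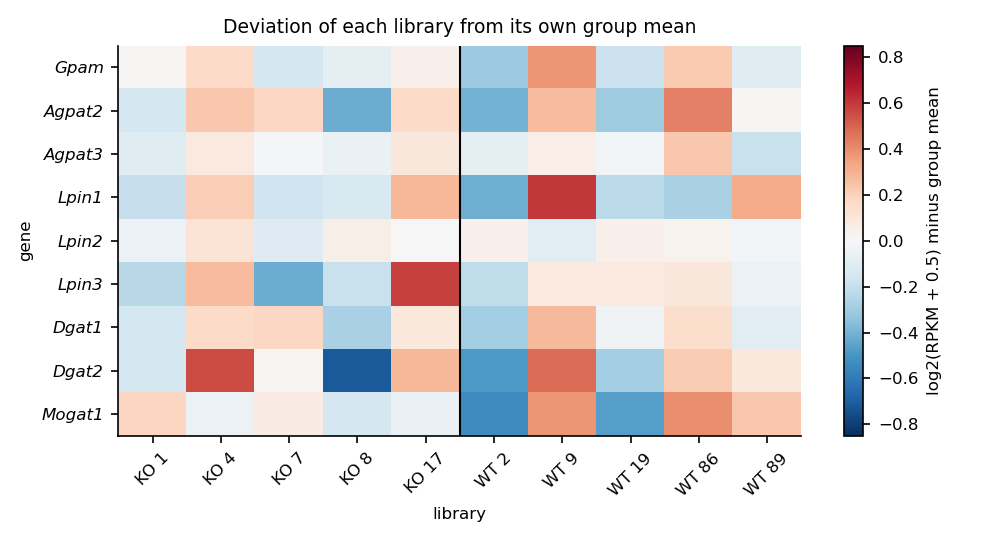
Heat map of the deviation of log2(RPKM + 0.5) from the library's own group mean (colour, red above and blue below) for the 9 tested members (down the page) in the 5 KO-labelled and 5 WT libraries (across). Agpat2, Dgat1 and Dgat2 are low in KO 8 and WT 2 and high in WT 9.

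Upstream sequence was available from RefSeq (GRCm38.p6) for 7 of the 10 members. Dgat1, Dgat2 and Mogat2 had no entry. The 250 bases before the RefSeq starts in the table are shown for the 3 members that fell and had an entry, because these genes fell in the same libraries. All lie on the minus strand and are printed 5′ to 3′. Capitals mark matches on either strand to 5 motifs: the E-box (CACGTG), a nuclear receptor half-site (AGGTCA), the GC box (GGGCGG), the TATA box (TATAAA) and the CCAAT box, named by its letters.
Lpin1 chr12:16610967-16611216: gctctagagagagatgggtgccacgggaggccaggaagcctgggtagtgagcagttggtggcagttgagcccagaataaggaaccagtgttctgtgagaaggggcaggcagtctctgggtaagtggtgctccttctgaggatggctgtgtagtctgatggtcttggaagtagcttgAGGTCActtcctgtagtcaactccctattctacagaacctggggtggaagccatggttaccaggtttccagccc
Agpat2 chr2:26604418-26604667: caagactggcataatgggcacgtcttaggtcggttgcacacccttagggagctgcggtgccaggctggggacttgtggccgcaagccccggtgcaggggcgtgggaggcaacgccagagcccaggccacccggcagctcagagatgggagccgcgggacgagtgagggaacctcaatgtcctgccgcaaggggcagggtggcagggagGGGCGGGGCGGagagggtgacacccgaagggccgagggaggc
Gpam chr19:55099478-55099727: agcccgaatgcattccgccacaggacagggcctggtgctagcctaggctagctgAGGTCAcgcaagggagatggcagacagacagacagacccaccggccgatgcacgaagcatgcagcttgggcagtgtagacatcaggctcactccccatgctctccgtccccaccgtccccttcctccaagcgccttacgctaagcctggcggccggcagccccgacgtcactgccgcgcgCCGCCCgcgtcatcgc
Gpam chr19:55127239-55127488: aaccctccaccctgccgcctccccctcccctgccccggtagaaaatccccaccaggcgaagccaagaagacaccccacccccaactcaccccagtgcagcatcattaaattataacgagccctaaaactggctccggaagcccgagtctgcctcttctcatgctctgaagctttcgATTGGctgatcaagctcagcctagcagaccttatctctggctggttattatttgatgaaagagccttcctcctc
The Lpin1 window belongs to the start of its less abundant transcript, and the start of its main transcript, 21196 bases away, had no window. It had a half-site beginning 74 bases before the start, and the first Gpam window had one at 196 bases and a GC box at 16 bases before it. Agpat2 had overlapping GC boxes at 42 and 37 bases, and the other Gpam window a CCAAT box at 74 bases before the start. Of 32851 mouse windows of this length, 14.0% held a half-site, 32.7% a GC box and 33.9% a CCAAT box, with 6.02% for the E-box and 12.4% for the TATA box. A match is a string of letters and not a shown binding site. No motif was found in the windows of all 3 genes. Windows of members that were not called held matches too. Those of Lpin2 had an E-box, GC boxes and CCAAT boxes, and Lpin3 had a GC box. Agpat3 and Mogat1 had no match.

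The transcript table divides these genes further, with reads shared among overlapping models, so its values are estimates and are not set against the gene values. Of 54 transcripts, 36 were tested. The main coding transcripts of Dgat1 and Dgat2 fell, which is 2 of 36, against 0.452% of the 44475 transcripts tested. None rose, where 0.0922% of all did. By unadjusted p under 0.05, 14 were lower, against 3.56% of all transcripts tested, and 2 were higher, against 5.88%.

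Lpin1 had transcripts from separate starts, 21196 bases apart. ENSMUST00000067124, the more abundant, was at 10.8, 14.4, 11.8, 11.7 and 16.4 RPKM in KO 1, KO 4, KO 7, KO 8 and KO 17, and at 22.5, 44.4, 22.3, 22.2 and 36.9 RPKM in WT 2, WT 9, WT 19, WT 86 and WT 89. The groups did not overlap, and the log2 change of -1.11 (SE 0.22) missed the threshold over all transcripts (adjusted p = 0.0714). ENSMUST00000111067, whose start adjoins the Lpin1 window above, was at 2.66, 3.39, 2.11, 2.63 and 1.95 RPKM in those KO-labelled libraries and at 2.72, 5.24, 3.83, 5.10 and 5.66 RPKM in those WT libraries. Here KO 4 lay above WT 2, and the log2 change was -0.70 (SE 0.20, adjusted p = 0.266). The transcripts were not shown to differ in their change (difference from the other transcript 0.41 on the log2 scale, unadjusted p = 0.199, adjusted p = 1.00). The share of ENSMUST00000067124 was 83.4 ± 3.77% in KO-labelled and 86.4 ± 3.32% in WT libraries.

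Lipin-1 is also known as alpha and beta forms, which differ by an alternatively spliced coding exon. In GENCODE M21 (GRCm38) that exon is exon 6 of ENSMUST00000067124, at chr12:16571164-16571262 on the minus strand. It is printed 5′ to 3′ with its 99 bases in capitals, since it is what separates the forms. The 30 bases on each side are from the neighbouring exons of the spliced transcript, not from introns.
Lpin1 exon 6: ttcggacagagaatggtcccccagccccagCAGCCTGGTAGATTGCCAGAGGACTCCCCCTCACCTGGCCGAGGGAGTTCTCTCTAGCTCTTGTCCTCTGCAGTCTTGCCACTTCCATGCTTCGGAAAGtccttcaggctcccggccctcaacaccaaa
Both Lpin1 transcripts in the deposited table contain this exon and have 2772 coding bases, as the beta form does. The 2 full-length M21 models without it, with 2673 coding bases, were not analysed here, so the Lpin1 values do not divide alpha from beta.

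**Figure D5:**
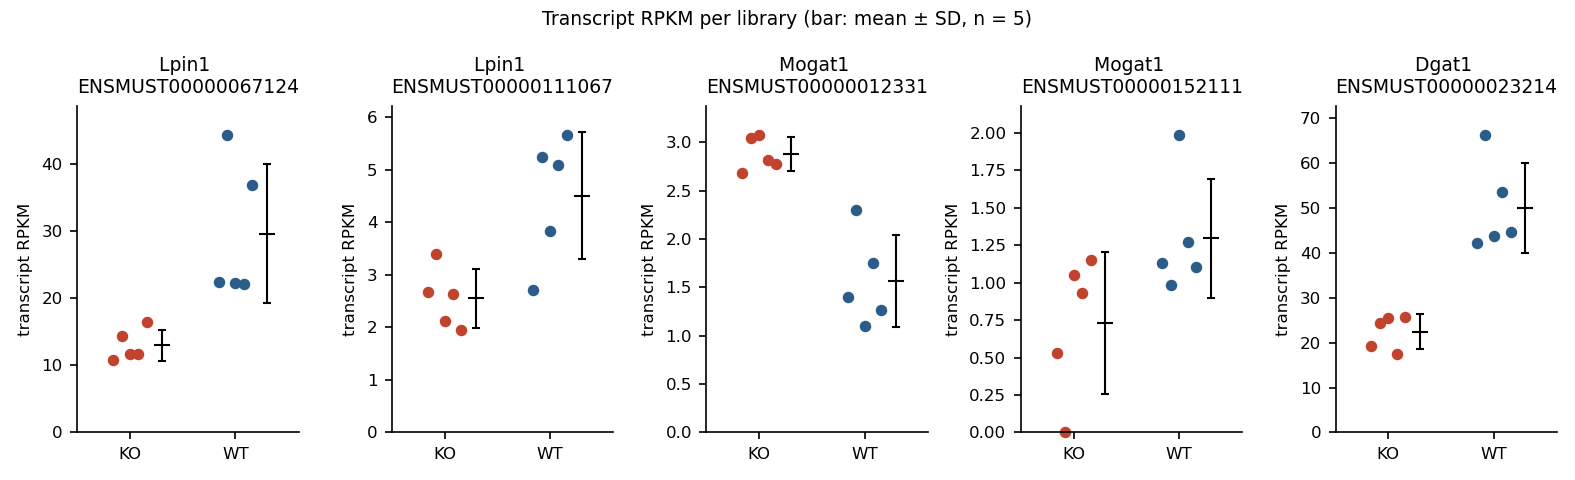
RPKM of transcripts of Lpin1, Mogat1 and Dgat1 (vertical axes, linear, from 0) in the 5 KO-labelled and 5 WT libraries, with the mean and SD. Lpin1 ENSMUST00000067124 and Dgat1 ENSMUST00000023214 are lower in all KO-labelled libraries, and Mogat1 ENSMUST00000012331 is higher in all of them.

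Of the other genes, Dgat1 ENSMUST00000023214 was at 22.5 ± 3.83 RPKM in KO-labelled and 50.1 ± 10.1 RPKM in WT libraries and fell by 1.14 on the log2 scale (SE 0.16, adjusted p = 0.0115). The single Dgat2 transcript, ENSMUST00000033001, was at 74.1 ± 21.9 RPKM in KO-labelled and 194.9 ± 53.2 RPKM in WT libraries and fell by 1.40 (SE 0.25, adjusted p = 0.0492). Its call ended without KO 1, KO 7, KO 8, KO 17, WT 9, WT 19, WT 86 or WT 89, each left out singly (adjusted p 0.0728 to 0.139). Agpat2 ENSMUST00000028286 (49.3 ± 12.2 RPKM in KO-labelled and 109 ± 28.5 RPKM in WT libraries, adjusted p = 0.0601) and Gpam ENSMUST00000061856 (43.7 ± 3.75 RPKM in KO-labelled and 69.4 ± 14.6 RPKM in WT libraries, adjusted p = 0.101) did not pass. The tested transcripts of Agpat3 had log2 changes between -0.44 and 2.31, those of Lpin2 between -0.61 and 0.56, and none of these passed. The tested transcripts of Agpat2 had log2 changes between -1.22 and 0.48, the other 6 of Dgat1 between -1.83 and 1.41, and the 1 tested transcript of Lpin3 had 0.34, with no call among them.

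Transcript proportions within a gene were tested for 33 of the member transcripts, of which 1 passed, against 0.379% of 36953 transcripts. It was Dgat1 ENSMUST00000162354, a model with no coding sequence, at 6.30, 3.34, 7.02, 8.33 and 4.35 RPKM in KO 1, KO 4, KO 7, KO 8 and KO 17. In WT 2 and WT 9 it is listed at 0, and it was at 1.48, 8.61 and 13.6 RPKM in WT 19, WT 86 and WT 89. The WT libraries spanned the KO-labelled range, although relative to the other Dgat1 transcripts it was higher by 2.44 (adjusted p = 0.0176). The call ended without KO 7, KO 8, WT 2, WT 9 or WT 19, each left out singly.

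In the main coding transcript of Mogat1 by mean RPKM the difference pointed the other way, but it was not called over all 10 libraries. The groups overlapped for the whole gene (limma adjusted p = 0.270). Its 22 to 48 reads in WT libraries are shared among 6 listed transcripts. ENSMUST00000012331 was at 2.68, 3.04, 3.07, 2.82 and 2.77 RPKM in KO 1, KO 4, KO 7, KO 8 and KO 17, and at 1.40, 2.30, 1.10, 1.76 and 1.27 RPKM in WT 2, WT 9, WT 19, WT 86 and WT 89. All KO-labelled libraries were above all WT libraries, a pattern found in 6.96% of all genes tested and not counted over transcripts. The log2 difference was 0.74 (SE 0.16, unadjusted p = 0.000985 in limma). It did not pass over all transcripts (adjusted p = 0.102) except without WT 9 (log2 difference 0.86, adjusted p = 0.0477). ENSMUST00000152111 had a log2 difference of -0.64 (adjusted p = 0.591), and the proportions of the pair did not pass either (adjusted p = 0.142).

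Other enzymes of these steps were examined as a list of 17 genes, of which 13 were tested, 2 fell, 2 rose and the median log2 change was 0.02. That is 15.4% in each direction, where 1.95% of all genes tested fell and 4% rose. Gpat3, a microsomal glycerol phosphate acyltransferase of adipocytes, was at 12.6 ± 1.35 RPKM in KO-labelled and 27.6 ± 5.81 RPKM in WT libraries and fell by 1.08 (SE 0.14, adjusted p = 0.00175). Gpat4 was at 28.3 ± 4.06 RPKM in KO-labelled and 39.9 ± 4.23 RPKM in WT libraries and fell by 0.49 (adjusted p = 0.0303). That call ended without KO 1, KO 8, WT 9, WT 19, WT 86 or WT 89, each left out singly (adjusted p 0.0570 to 0.0760), and with no filter (adjusted p = 0.0534). Plpp5, a lipid phosphate phosphatase gene (log2 change 0.25, adjusted p = 0.0323), and Tmem68, an acyltransferase gene (log2 change 0.39, adjusted p = 0.0272), rose, but not with median-ratio scaling (log2 changes 0.16 and 0.31) or quantile normalization. The Plpp5 call also ended with no filter (adjusted p = 0.0543) and without KO 1, KO 8, KO 17, WT 2, WT 9, WT 86 or WT 89 (adjusted p 0.0560 to 0.0826). The Tmem68 call ended without KO 1, KO 7, KO 8, KO 17, WT 19 or WT 86 (adjusted p 0.0576 to 0.0754). Agpat1, an AGPAT of the endoplasmic reticulum like AGPAT2, was at 26.4 ± 2.45 RPKM in KO-labelled and 26.2 ± 1.28 RPKM in WT libraries (adjusted p = 0.980). Agpat4, Agpat5 and Lclat1 had log2 changes of 0.22, 0.24 and 0.19 and did not pass (limma adjusted p = 0.167, 0.0949 and 0.160).

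Of 8 lipin and lipid droplet partners, 6 were tested and 1 fell (16.7%, against 1.95% of all genes tested), with a median of -0.21. It was Ppara, a nuclear receptor that lipin-1 is known to coactivate, at 0.999 ± 0.193 RPKM in KO-labelled and 2.33 ± 0.422 RPKM in WT libraries (log2 change -0.91, SE 0.13, adjusted p = 0.00417). Without both WT 86 and WT 89 its adjusted p was 0.0524. The genes of the lipin phosphatase complex, Ctdnep1 and Cnep1r1, had log2 changes of -0.06 and 0.09 and did not pass. Bscl2, which encodes the droplet protein seipin, had a log2 change of -0.24 (adjusted p = 0.0688) and passed with quantile normalization (adjusted p = 0.0385).

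Of 26 genes of phospholipid branches that use phosphatidate or diacylglycerol, 24 were tested, 2 fell (8.33%), 1 rose (4.17%) and the median was 0.00. Among all genes tested 1.95% fell and 4% rose, so the share that rose was near the background. Chpt1, a choline phosphotransferase that uses diacylglycerol, was at 22.3 ± 2.42 RPKM in KO-labelled and 41.1 ± 7.07 RPKM in WT libraries and fell by 0.85 (SE 0.12, adjusted p = 0.00402). Dgkd, a diacylglycerol kinase, fell by 0.49 (adjusted p = 0.0156, and 0.0945 without both WT 86 and WT 89). Selenoi, an ethanolamine phosphotransferase, rose by 0.24 (adjusted p = 0.0479), a call that ended with either scaling, with no filter, with eBayes without trend or robust, and on leaving out any library but KO 8 (adjusted p 0.0609 to 0.326). Pemt, which methylates phosphatidylethanolamine, had a log2 change of -0.38 and passed with median-ratio scaling only (adjusted p = 0.0713 without it and 0.0476 with it).

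Among 10 genes that supply glycerol phosphate and acyl-CoA, 9 were tested, 3 fell (33.3%), 1 rose (11.1%) and the median was 0.05. The shares over all genes tested were 1.95% and 4%. Pck1, of glyceroneogenesis, was at 24.1 ± 5.18 RPKM in KO-labelled and 218 ± 64.5 RPKM in WT libraries (log2 change -3.12, adjusted p = 2.7e-05). Acsl1, which activates fatty acids, was at 50.7 ± 5.11 RPKM in KO-labelled and 138 ± 21.5 RPKM in WT libraries (log2 change -1.43). The related genes Acsl3, Acsl4 and Acsl5 had log2 changes of 0.13, 0.29 and 0.26 and did not pass. Acsl5 (limma adjusted p = 0.0531) passed as higher with a 1 RPKM filter (0.0476), array weights (0.0440) and voom (0.0471). It also passed without KO 7 (0.0465) and without WT 2 (0.0448). Gpd1, which makes glycerol phosphate from a glycolytic intermediate, had a log2 change of -0.66 and did not pass (adjusted p = 0.0586), although it did with array weights (0.0484), with voom (0.0462) and without KO 7 (0.0436). Aqp7, the glycerol channel, fell by 0.59 (adjusted p = 0.00895, and 0.0566 without both WT 86 and WT 89). Gk, glycerol kinase, rose by 0.36 (adjusted p = 0.0297), a call that ended with either scaling and without KO 1, KO 7, KO 8, KO 17, WT 9, WT 19 or WT 89 (adjusted p 0.0557 to 0.0784).

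The tissue carried its defining markers in both groups, but their levels differed. For the marker counts that follow, 1.95% of all genes tested fell and 4% rose. Of 8 adipocyte markers 7 fell, and their summed level was 5238 to 5489 RPKM in KO-labelled and 13007 to 18832 RPKM in WT libraries. Of 4 neutrophil and monocyte markers 2 rose (422 to 772 RPKM in KO-labelled and 173 to 342 RPKM in WT libraries). Of 6 fibroblast markers 2 rose (1590 to 1884 RPKM in KO-labelled and 1251 to 1534 RPKM in WT libraries), and of 7 macrophage markers 1 rose (3518 to 4521 RPKM in KO-labelled and 2902 to 3999 RPKM in WT libraries). Of 5 endothelial markers 1 fell, none of 4 mesothelial markers passed, and 5 of 6 markers of ovary, oviduct and uterus were under 1 RPKM in every library. The part of these shifts in the falls of Gpam, Agpat2, Lpin1, Dgat1 and Dgat2 was not tested. Of 3 liver and intestine markers, the tissues where Mogat1, Mogat2 and Dgat1 are also expressed, Apoa4 and Fabp2 were under 1 RPKM in every library, and Alb was at 9.90 to 144 RPKM in KO-labelled and 4.91 to 72.9 RPKM in WT libraries. Markers of skeletal muscle, which is rich in lipin-1, differed in their pattern. Ckm was at 10.9 and 6.19 RPKM in KO 1 and KO 4 and under 1 RPKM in KO 7, KO 8 and KO 17. Among WT libraries Ckm was highest in WT 86, at 2.69 RPKM. Mylpf and Myh1 were also highest in KO 1 and KO 4. Acta1 was at 44.08 and 31.01 RPKM in KO 1 and KO 4, but also at 15.97 to 37.52 RPKM in WT libraries. In KO 7, KO 8 and KO 17 Acta1 was at 0.865 to 3.41 RPKM. Leaving out KO 1 and KO 4 therefore keeps WT libraries with Acta1 RNA. The brown adipocyte marker Ucp1 was at 0 to 5.70 RPKM in KO-labelled and 0.203 to 13.4 RPKM in WT libraries. Without KO 1 and KO 4 together, a setting chosen after seeing the data, the log2 change of Lpin1 was -1.10 (adjusted p = 0.0749), and Dgat1 (-1.03, adjusted p = 0.0150) and Dgat2 (-1.55, adjusted p = 0.0405) were the members still called.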

How the data were processed

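RNA-seq values of 10 gonadal white adipose tissue libraries, 5 labelled KO and 5 labelled WT, were analysed as RPKM in the tables the authors deposited for genes and transcripts. The labels name polyA RNA, and bcl2fastq, STAR, Subread and featureCounts are named per the submitters' processing notes. Genome build, annotation, use of strand and the tool behind the transcript estimates: not given in the sources used here. For transcripts the unit is known from a file name alone. Repeated entries were used once (40503 genes from 40770 entries, 84046 transcripts from 84752).

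Log2(RPKM + 0.5) was fitted in R 4.3.3 with limma 3.58.1 and statmod 1.5.0 (eBayes, both trended and robust; 2-sided) and Benjamini-Hochberg adjustment over all genes or transcripts with at least 0.5 RPKM in 5 libraries. Log2 changes are KO minus WT on this scale, which understates changes of low genes, and SE is the moderated SE of limma. Transcript proportions were tested with limma diffSplice. The 3 ratios were tested with exact permutation tests. Calls were made at an adjusted p under 0.05. The fits were tested on simulated data.

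RPKM values of a gene were whole multiples of 1 read in 25122 genes, 100% of those with values above 0 in 3 or more libraries (tolerance 0.001 reads). These reads gave depth, Poisson intervals and a limma voom alternative. Scaling to gene lengths used GENCODE M21 where its exon lengths gave whole reads, which held for 16193 of 25108 genes. For the other genes a length was searched for, and the shortest that gave whole reads in all libraries was used. Gpam, Agpat3, Lpin1, Dgat1 and Dgat2 were among these other genes, so their reads rest on a searched length.

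The members, gene lists and tests were chosen with earlier results of these data known. All members, every Lpin1 transcript, called genes of the first 2 lists and the 3 largest changes of the others were named, as were their other called genes, and tested transcripts not given singly are given as ranges or counts. Bscl2, Ctdnep1, Cnep1r1, Agpat1, Agpat4, Agpat5, Lclat1, Acsl3, Acsl4 and Acsl5 were added as values. Alternatives were median-ratio scaling, pseudocounts of 0.1 and 1, a 1 RPKM filter or none, quantile normalization, array weights, eBayes without trend or robust, voom, leaving out each library and leaving out WT 86 and WT 89. Array weights, quantile normalization and voom were run on genes only. Leaving out KO 1 and KO 4 together was added after seeing the data.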

Additional observations from a re-analysis of the deposited data

How the results depend on the processing

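No called log2 change or ratio reversed its direction. The 5 lower members kept their calls under every other pseudocount, filter, scaling, weighting, eBayes and voom setting. Leaving out single libraries gave 3 to 5 lower members, and leaving out both WT 86 and WT 89 gave 1, with Gpam (adjusted p = 0.116), Agpat2 (0.121), Lpin1 (0.0766) and Dgat2 (0.103) no longer called. Over all settings the adjusted p ran from 0.00463 to 0.116 for Gpam, 0.0109 to 0.121 for Agpat2, 0.00795 to 0.0766 for Lpin1, 0.00967 to 0.103 for Dgat2 and 7.2e-05 to 0.0192 for Dgat1. Without WT 86 and WT 89 there were 71 genes higher and 137 lower, 12 transcripts higher and 58 lower, 86 calls of transcript proportions and 0 lower member transcripts. No filter gave 292 genes higher, median-ratio scaling 102 and quantile normalization 149. Leaving out single libraries gave 192 to 693 genes higher and 205 to 313 lower, 16 to 48 transcripts higher and 120 to 177 lower, and 62 to 561 calls of proportions. For member transcripts it gave 1 to 3 lower, 0 to 1 higher and 0 to 3 calls of proportions. A pseudocount of 0.1, no filter and eBayes without trend or robust gave 1 lower member transcript each. Calls of proportions among members were 2 with a pseudocount of 0.1 and 0 with no filter. The difference in the log2 ratio of Dgat2 to Dgat1 was -0.40 (adjusted p = 0.0476) with a pseudocount of 1 and -0.48 to -0.28 without single libraries. The other 2 ratios kept their calls with both pseudocounts, without each single library and without WT 86 and WT 89, the settings run for ratios. Leaving out KO 1 and KO 4 together, chosen after seeing the data, gave 86 genes higher, 142 lower and 2 members lower. The causes were not tested. No paired analysis was possible because the groups share no animal numbers. Depth limits Mogat1, Mogat2 and Lpin3, which rest on few reads.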

Other observations

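For each tested member, the genes whose log2 deviations from the group means were most alike over the 10 libraries were taken from genes tested, leaving out predicted genes. Nearest to Agpat2 were Mmab (Pearson r 0.98), Aldh1a7 (0.97) and Paqr4 (0.94). Mmab was also nearest to Dgat1 (0.95) and among the nearest to Dgat2 (0.95), with Mrps6 (0.96) and Acat2 (0.95). Nearest to Gpam were Bcap31 (0.96), Aldh1l1 (0.96) and Sccpdh (0.95), and nearest to Lpin1 were Fbxo3 (0.97), Impa1 (0.97) and Glul (0.96). For Mogat1 they were Chpt1 (0.93), Lpl (0.93) and Fads1 (0.92). The highest of so many r values over 10 libraries is high by selection, so these are descriptions.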
